A study of Bos taurus with 12 samples.

Results

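The 7 miRNAs described here are the miR-199 group (bta-miR-199a-3p and bta-miR-199a-5p, with bta-miR-199b and bta-miR-199c), bta-miR-214, bta-miR-143 and bta-miR-145. They were chosen by name as miRNAs known from mesenchymal cells, with earlier results of these data known. They make up 7 of the 783 bovine miRNAs in the table, of which 336 had a read in at least 1 library. All 7 passed the filter on low values (at least 1 read in at least 2 libraries of a group) in each comparison, but miR-199c and miR-214 passed through UL alone in SL vs. UL and through SH alone in SH vs. SL. The RNA came from extracellular vesicles (EVs), membrane-bound particles that cells release, isolated from the blood plasma of Charolais- and Limousin-cross heifers. Plasma was taken from 6 heifers on Day 7 of a cycle without stimulation (U) and on Day 7 of the superstimulated (S) cycle that followed. All heifers had been synchronized with a progesterone device, GnRH and prostaglandin F2α. For the S cycle, they also received FSH and prostaglandin F2α and were inseminated. The 3 heifers with a high (H) and the 3 with a low (L) number of corpora lutea after superstimulation gave 4 groups of 3 libraries, UL, UH, SL and SH, where the number in a library name was taken as the heifer (UH1 and SH1 as heifer H1). The sources do not state this match, and values per heifer and the paired comparison rest on it. The S sample was always the later one, so superstimulation, insemination and time cannot be told apart. The cells that released the EVs were not identified, and fewer EVs from a cell type cannot be told apart from less miRNA per EV.

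A miRNA guides a protein complex to messenger RNAs that pair with its seed, bases 2 to 8 from the 5′ end, and lowers their output. The precursor hairpin has a 5′ (5p) and a 3′ (3p) arm, and each can give a mature miRNA. miR-199a and miR-214 are known from fibroblasts and other mesenchymal cells and are transcribed together from the opposite strand of a dynamin gene. miR-143 and miR-145 share a primary transcript and are abundant in smooth muscle, where they maintain the contractile state. In the mature sequences of the deposited table, printed below to show which members can have the same targets or share reads, the seed is in capitals.
bta-miR-199a-3p: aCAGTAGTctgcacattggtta
bta-miR-199c: tACAGTAGtctgcacattgg
bta-miR-199a-5p: cCCAGTGTtcagactacctgtt
bta-miR-199b: cCCAGTGTttagactatctgttc
bta-miR-214: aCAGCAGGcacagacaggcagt
bta-miR-143: tGAGATGAagcactgtagctcg
bta-miR-145: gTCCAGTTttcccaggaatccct

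miR-199a-5p and miR-199b, the 5p arms, had the same seed. They matched at 20 of the first 22 positions and differed by the substitutions C10T and C17T (the base of miR-199a-5p first, counted from the 5′ end). miR-199c shared a run of 19 bases with miR-199a-3p, from base 2 of miR-199c and base 1 of miR-199a-3p, so that its seed was shifted by 1 base. The split of reads between such similar entries is uncertain. The table had no separate entry for a 3p arm of miR-199b, which in human and mouse has the sequence of miR-199a-3p. The seed of miR-214 was found in 1 other entry, miR-761, while those of miR-143 and miR-145 were found in no other. In RefSeq (ARS-UCD2.0, names and neighbours only), the miR-199a loci lay within DNM3 and DNM2, the miR-199b locus within DNM1 and the miR-199c locus within NUP88. MIR214 lay within 10 kb of the DNM3 copy of miR-199a, and MIR143 within 10 kb of MIR145, inside the same long non-coding RNA gene.

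The libraries held 21466 to 77433 reads of known miRNAs with a median of 41190. Values are given as normalized reads, in which reads are scaled to a common depth with TMM factors. A read was worth 0.602 normalized reads in the largest library, SH3, and 2.01 in the smallest, SH2, where 3 reads correspond to 6.03 normalized reads. Within SH, SH2 was the lowest library for each of the 7 members. Their sum there (94.4 normalized reads) was still near that in UL2 (102) and UH2 (105). That sum was highest in SH1 (1269), SH3 (761) and SL1 (558). Results that rest on SH2 are given with and without it.

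The 7 miRNAs together took 3973 of 534136 reads of known miRNAs (0.744%), and 0.20% (UH2) to 2.44% (SH1) in single libraries. miR-199a-3p alone took 65.5% of these 3973 reads. Its mean over the 12 libraries was 222 normalized reads, which placed it at rank 29 of the 238 miRNAs tested over all groups. The means of the others were 49.4 for miR-143, 21.8 for miR-145, 12.1 for miR-199b, 10.9 for miR-199a-5p, 3.89 for miR-199c and 2.62 for miR-214. In this order, miR-199a-3p was above miR-143 in 12 of 12 libraries. miR-143 was above miR-145 in 8 of 12, and miR-145 above miR-199b in 10 of 12. The neighbours miR-199b and miR-199a-5p (7 of 12), miR-199a-5p and miR-199c (7 of 12) and miR-199c and miR-214 (5 of 12) did not keep their order across libraries.

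**Figure D1:**
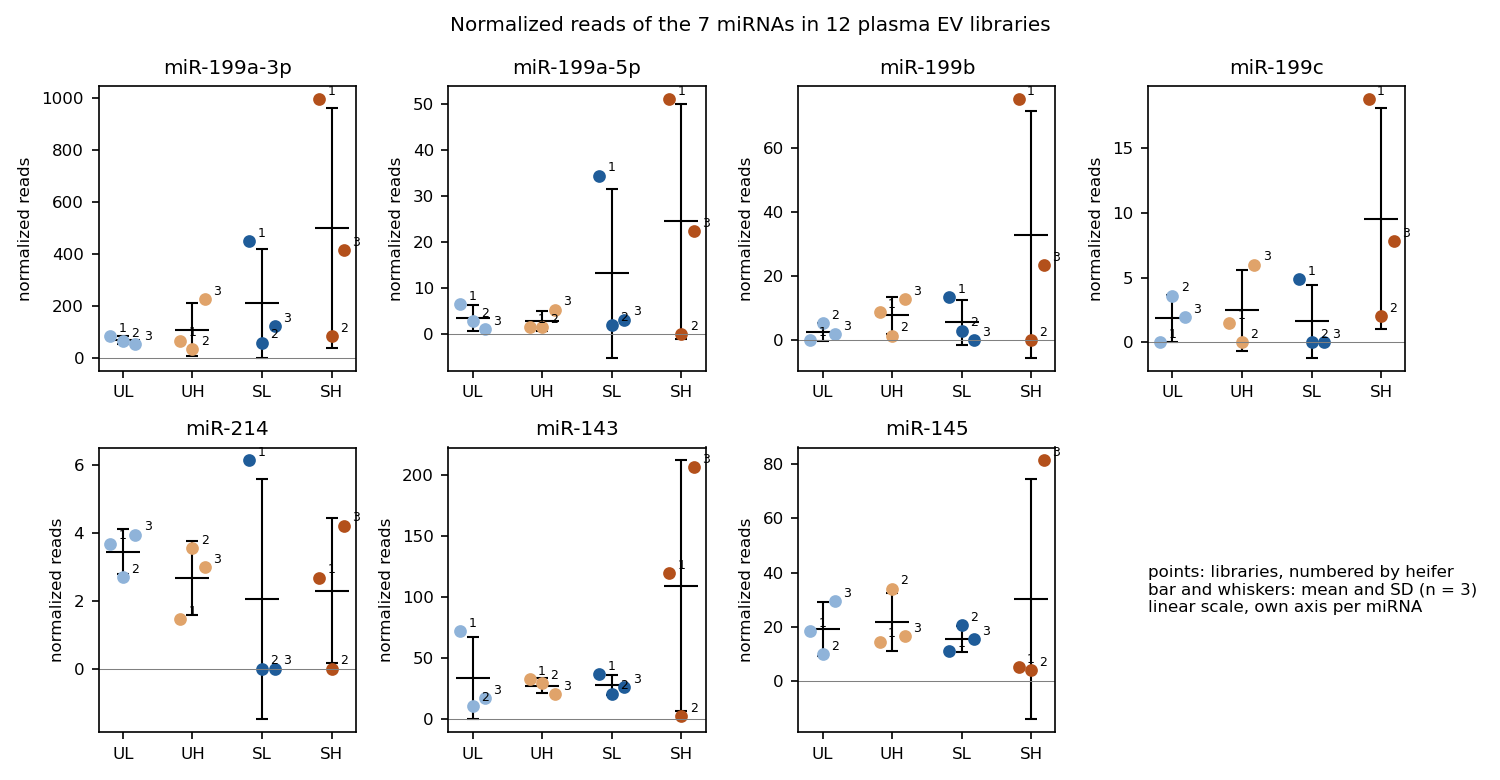
Normalized reads of each of the 7 miRNAs (y axis, linear, own scale per panel) in the groups UL, UH, SL and SH. Points are libraries numbered by heifer, and the bar and whiskers are the mean and SD (n = 3). SH1 and SH3 are the highest SH libraries for miR-143 and the 4 miRNAs of the miR-199 group, and SH2 is the lowest of the SH libraries for all 7.

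miR-199a-3p, the 3p arm, is known to restrain growth factor signalling through targets such as mTOR and MET. Its level was 86.6, 66.8 and 54.3 normalized reads in UL1 to UL3, and 67.5, 35.6 and 226 in UH1 to UH3. In the S cycle it was 451, 60.1 and 122 in SL1 to SL3, and 996, 86.4 and 416 in SH1 to SH3. The U group means were 69.3 ± 16.3 (UL) and 110 ± 102 (UH), and those of S were 211 ± 210 (SL) and 499 ± 461 (SH), each with its SD (n = 3). SH1, SL1 and SH3 were the highest of the 12 libraries, and the ranges of the groups overlapped in each comparison.

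miR-199a-5p, the 5p arm of the same hairpin, was read 0 to 38 times per library. It had 6.45, 2.71 and 0.988 normalized reads in UL1 to UL3 and 1.47, 1.42 and 5.26 in UH1 to UH3. In SL1 to SL3 it had 34.4, 1.97 and 3.09, and in SH1 to SH3 51.0, 0 and 22.3. SH1, SL1 and SH3 were again the highest, while SH2 had 0 reads, which allows up to 6.03 normalized reads.

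miR-199b, with the same seed, had 0, 5.42 and 1.98 normalized reads in UL1 to UL3 and 8.81, 1.42 and 12.8 in UH1 to UH3. In SL1 to SL3 it had 13.5, 2.96 and 0, and in SH1 to SH3 75.2, 0 and 23.5. For miR-199c, the shifted 3p sequence, SH1 had 18.8 normalized reads (14 reads), SH3 7.83 (13 reads) and UH3 6.02 (8 reads), and the other 9 libraries had at most 4 reads each. SH1 was thus the highest library for each of the 4 miRNAs of the miR-199 group.

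miR-214, the neighbour of miR-199a in the genome, had at most 7 reads in a library. Its levels were 3.69, 2.71 and 3.95 normalized reads in UL1 to UL3, 1.47, 3.56 and 3.01 in UH1 to UH3, 6.14, 0 and 0 in SL1 to SL3, and 2.69, 0 and 4.22 in SH1 to SH3. In contrast to the miR-199 group, SH1 lay within the range of the U libraries. With so few reads, the 95% interval of its log2 fold change was wide, -2.19 to 1.37 in SH vs. UH.

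miR-143, which acts with miR-145 in smooth muscle, had 71.9, 10.8 and 16.8 normalized reads in UL1 to UL3 and 32.3, 29.2 and 20.3 in UH1 to UH3. In SL1 to SL3 it had 36.8, 20.7 and 26.3. In SH1 to SH3 it had 120, 2.01 and 206, the last from 342 reads and the second from 1 read. SH therefore held both the highest and the lowest library.

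miR-145 is known to act on the pluripotency factors OCT4, SOX2 and KLF4. It had 18.4, 9.93 and 29.6 normalized reads in UL1 to UL3, 14.7, 34.2 and 16.5 in UH1 to UH3, 11.1, 20.7 and 15.5 in SL1 to SL3, and 5.37, 4.02 and 81.3 in SH1 to SH3. SH1, the highest library for the miR-199 group, was the next to lowest for miR-145, and SH3 was the only SH library above the U libraries.

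The comparisons between cycles ask what differs in plasma EVs after superstimulation. A miRNA was called at a log2 fold change of at least 1 either way and an unadjusted P of at most 0.05 from limma. The study used these thresholds with another test, edgeR, which was not run here. Its calls differ from those below, and the reason was not tested. It reported miR-199a-3p as higher in S in both H and L heifers, and miR-199a-5p as higher in SH than in UH. It also reported miR-199c as higher in SH than in SL. In separate heifers, the study measured miR-199a-3p and other selected miRNAs by quantitative PCR after reverse transcription (RT-qPCR). It reported part of them as significant and the rest as showing the same pattern, without naming which in its text. Those measurements are not part of the data used here. In SH vs. UH, fitted without pairing the libraries of a heifer, 1 of the 7 was called, against 5.66% of the 212 miRNAs tested. This was miR-199a-3p, with a log2 fold change of 2.0 (SE 0.70, limma adjusted P = 0.736), and the call was lost without UH1, UH2, SH1 or SH3. Without the filter on low values its limma adjusted P was 0.00357, with the same log2 fold change and 298 miRNAs tested. With the heifer as a replicate block, 15 of the 212 were called, with miR-199a-3p the only member among them. The lowest limma adjusted P of the 212 was then 0.0521. Log2 fold changes of the 7 ranged from -0.63 (miR-145) to 2.0, with a median of 0.84, against -0.14 over all tested, and 5 of the 7 were above 0. The groups' ranges overlapped for all 7, while 7.55% of the miRNAs tested had ranges that did not.

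In SL vs. UL, 0 of the 7 were called by limma, and the unadjusted P was above 0.05 for each, against calls for 2.34% of the miRNAs tested. miR-199a-3p had a log2 fold change of 1.12 (SE 0.58, limma adjusted P = 0.702). With the heifer as a replicate block, the same difference had an SE of 0.46 (limma adjusted P = 0.725) and was called. The median of the 7 was 0.18, against -0.07 over all tested. Ranges overlapped for all 7, and 7.94% of the miRNAs tested had ranges that did not.

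Taking all 6 heifers as pairs, 1 of the 7 was called, miR-199a-3p, against 5.46% of the 238 tested. It was higher in S by 1.56 on the log2 scale (SE 0.37, 95% interval 0.78 to 2.35), with the lowest unadjusted P of the 238, but the limma adjusted P of 0.153 did not pass the correction. The call was kept without each of the 6 heifers in turn, with 1.10 without H1 and 1.90 without L2. The paired fit uses the libraries of both comparisons above and is not separate evidence. The fold between normalized reads of S and U was 14.8 in H1, 2.43 in H2, 1.84 in H3, 5.2 in L1, 0.899 in L2 and 2.25 in L3. The level was thus higher in S in 5 of 6 heifers, L2 being the exception, and 16 of the 238 miRNAs (6.72%) were higher in at least 5 heifers. The exact two-sided sign-flip test over the 6 heifers gave P = 0.0625 (adjusted P = 0.837), and 0.03125 is the smallest P it can give.

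The other members did not share this pattern in all heifers. miR-199a-5p had a paired log2 fold change of 1.33 (SE 0.68, limma adjusted P = 0.606) and was higher in S in 4 of 6 heifers, H2 and L2 being lower. miR-199b (0.68, SE 0.73) was higher in 3 of 6 and miR-199c (0.62, SE 0.71) in 4 of 6. For miR-214 the value was -0.80 (SE 0.61), with 3 heifers higher and 3 lower. miR-143 was at 0.39 (SE 0.59) and miR-145 at -0.41 (SE 0.52), and the 2 differed in sign in H1 and L3. In H2, miR-143 went from 29.2 to 2.01 and miR-145 from 34.2 to 4.02 normalized reads, while miR-199a-3p went from 35.6 to 86.4. The limma adjusted P of these 6 was between 0.606 and 0.864.

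**Figure D2:**
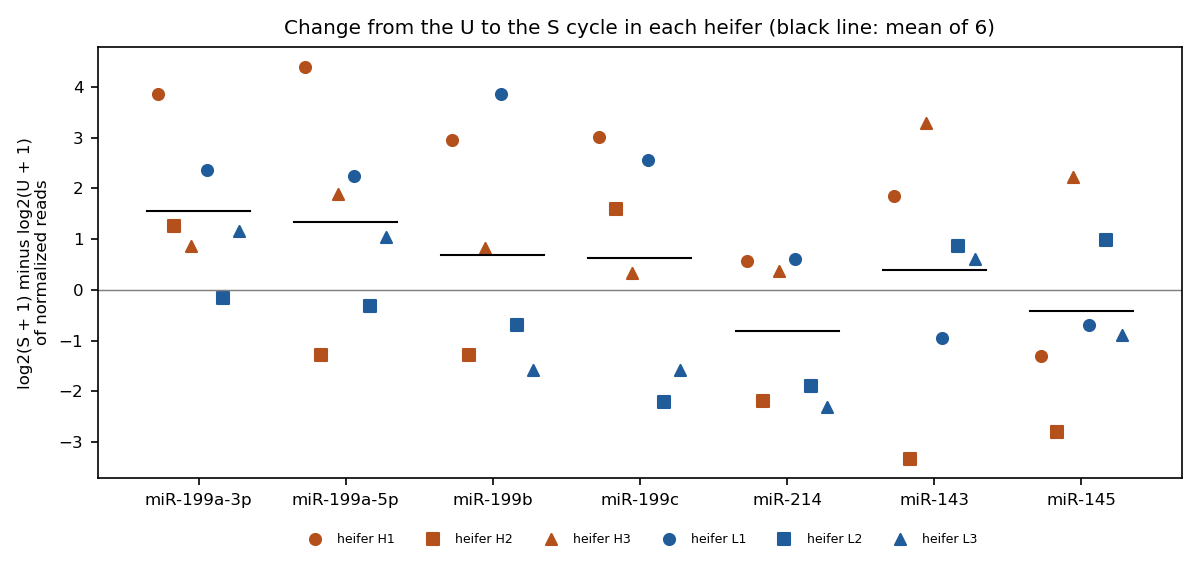
Log2 change of normalized reads (plus 1) from the U to the S cycle (y axis) for each of the 7 miRNAs, one point per heifer and a black line for the mean of 6. miR-199a-3p lies above 0 in 5 of 6 heifers, and miR-143 ranges from -3.33 in H2 to 3.28 in H3.

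The comparisons of H with L heifers ask whether responders differ before or after superstimulation. In UH vs. UL, 0 of the 7 were called by limma, again with each unadjusted P above 0.05, against calls for 2.64% of the 227 tested. The largest difference was that of miR-199b (log2 fold change 1.37, SE 0.89, limma adjusted P = 0.929), and miR-199a-3p had 0.26 (95% interval -0.76 to 1.29). In SH vs. SL, 0 of the 7 were called by limma, with each unadjusted P above 0.05, against calls for 5.47% of the 201 tested. The largest difference was that of miR-199c (2.16, SE 0.99, limma adjusted P = 0.666), which had 4, 0 and 0 reads in SL and 14, 1 and 13 in SH and so passed the filter only through the group where it was higher. Ranges overlapped for all 7 in both, against 7.49 and 8.96% of miRNAs tested whose ranges did not. The median of the 7 was 0.16 in UH vs. UL and 0.58 in SH vs. SL, against 0.04 and -0.08 over all tested.

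The change between cycles was compared between H and L heifers as an interaction. By limma, 0 of the 7 were called, and each unadjusted P was above 0.05, against 5.04% of the 238 tested. For miR-199a-3p the change in H minus that in L was 0.88 (95% interval -1.42 to 3.17, limma adjusted P = 0.964). The call of miR-199a-3p in SH vs. UH and its absence in SL vs. UL therefore do not show that H and L heifers differed.

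**Figure D3:**
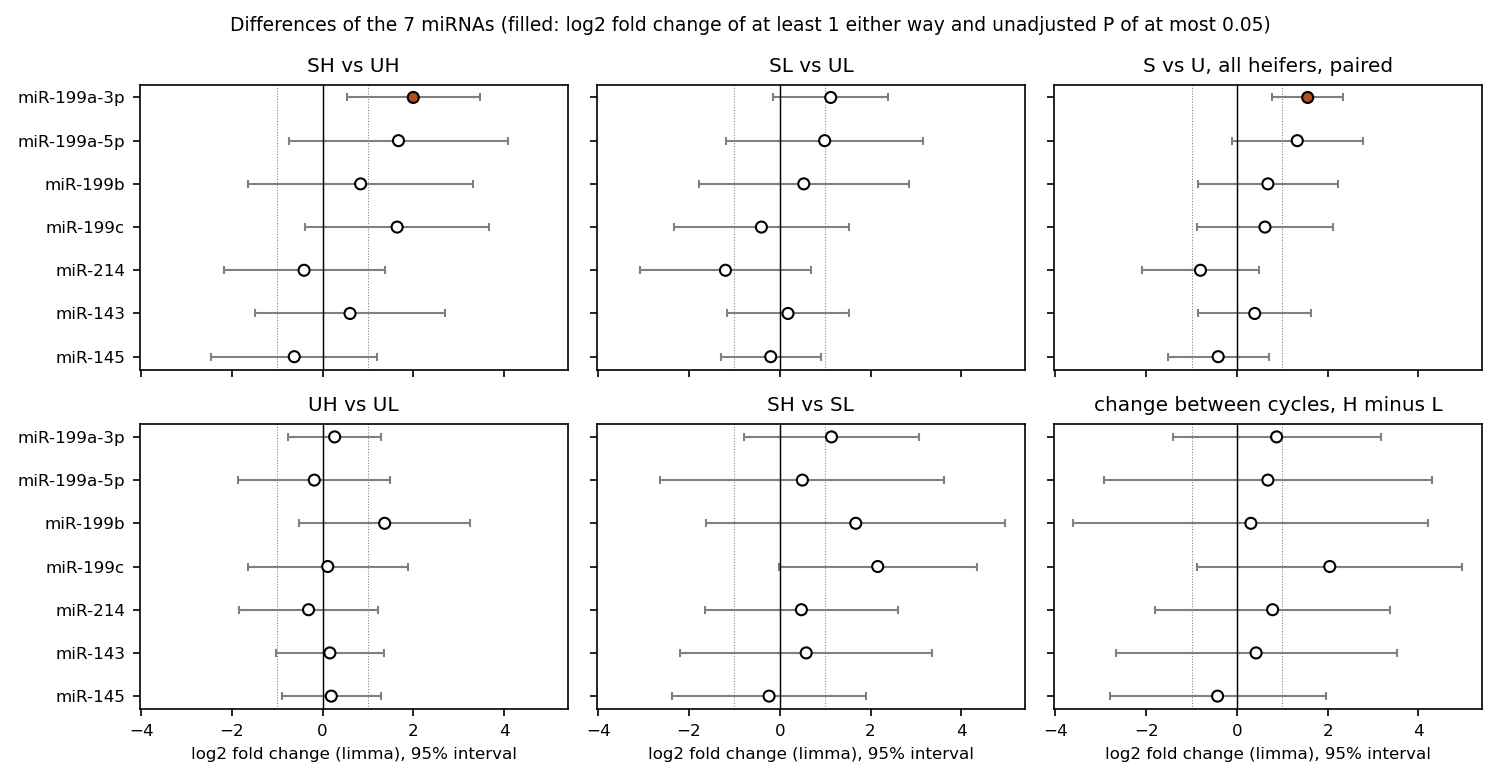
Log2 fold changes of the 7 miRNAs (points) with 95% intervals from limma (whiskers) in 6 comparisons, where dotted lines mark a log2 fold change of 1 either way and filled points were called. miR-199a-3p in SH vs. UH (2.0) and in the paired comparison (1.56) are the filled points.

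Without SH2, 5 of the 7 were called in SH vs. UH, against 11.5% of the 209 tested. These were miR-199a-3p (log2 fold change 2.96, limma adjusted P = 7.69e-07), miR-199a-5p (3.38, 0.0115), miR-199b (2.65, 0.0294), miR-143 (2.51, 0.000403) and miR-199c (2.35, 0.279). All 7 were then above 0, miR-214 at 0.30 and miR-145 at 0.10. In SH vs. SL without SH2, 4 of the 7 were called, against 17.3% of the 196 tested, with a smallest limma adjusted P of 0.0693 for miR-143. SH was then represented by SH1 and SH3 alone, the libraries that were high. Without SH1, 0 of the 7 were called in SH vs. UH and miR-199a-3p had a log2 fold change of 1.20. The results in H heifers thus turned on which of the 3 SH libraries was left out.

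Shares within a library do not depend on its depth. The 5p reads (miR-199a-5p and miR-199b) made up 270 of the 2919 reads of the miR-199 group (9.25%, exact binomial 95% interval 8.22 to 10.4, counting error only). The share was 11.1% in SH1 (9.03 to 13.4), 9.76% in SH3 (7.76 to 12.1) and 9.51% in SL1 (6.85 to 12.8), the libraries with most of these reads. It was 0% in SH2 (0 of 44, up to 8.04) and 13.0% in UH1 (5.37 to 24.9). Over all libraries of a cycle it was 7.84% in U (5.94 to 10.1) and 9.69% in S (8.49 to 11). The 3p arm therefore held most reads of the group in each library.

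miR-199c made up 1.77% (1.31 to 2.35) of the reads of miR-199c and miR-199a-3p, with 1.85% in both SH1 and SH3 and 5.13% in UL2 (4 reads, 1.41 to 12.6). miR-145 made up 31.6% of the reads of miR-143 and miR-145, but the share varied more between libraries. It was 4.30% in SH1 (4 of 93, 1.18 to 10.6), 28.3% in SH3 (135 of 477, 24.3 to 32.6), 20.4% in UL1 (12.9 to 29.7) and 63.8% in UL3 (48.5 to 77.3). The intervals of SH1 and SH3, and those of UL1 and UL3, did not overlap. These intervals cover counting error only and not the spread between heifers, so the shares are given as a description. miR-214 made up 21 of 42 reads of miR-214 and miR-199a-5p in U (50.0%, 34.2 to 65.8) and 14 of 121 in S (11.6%, 6.47 to 18.7). This compares reads summed over heifers, of which SH1, SH3 and SL1 gave most in S, and was not tested between cycles.

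**Figure D4:**
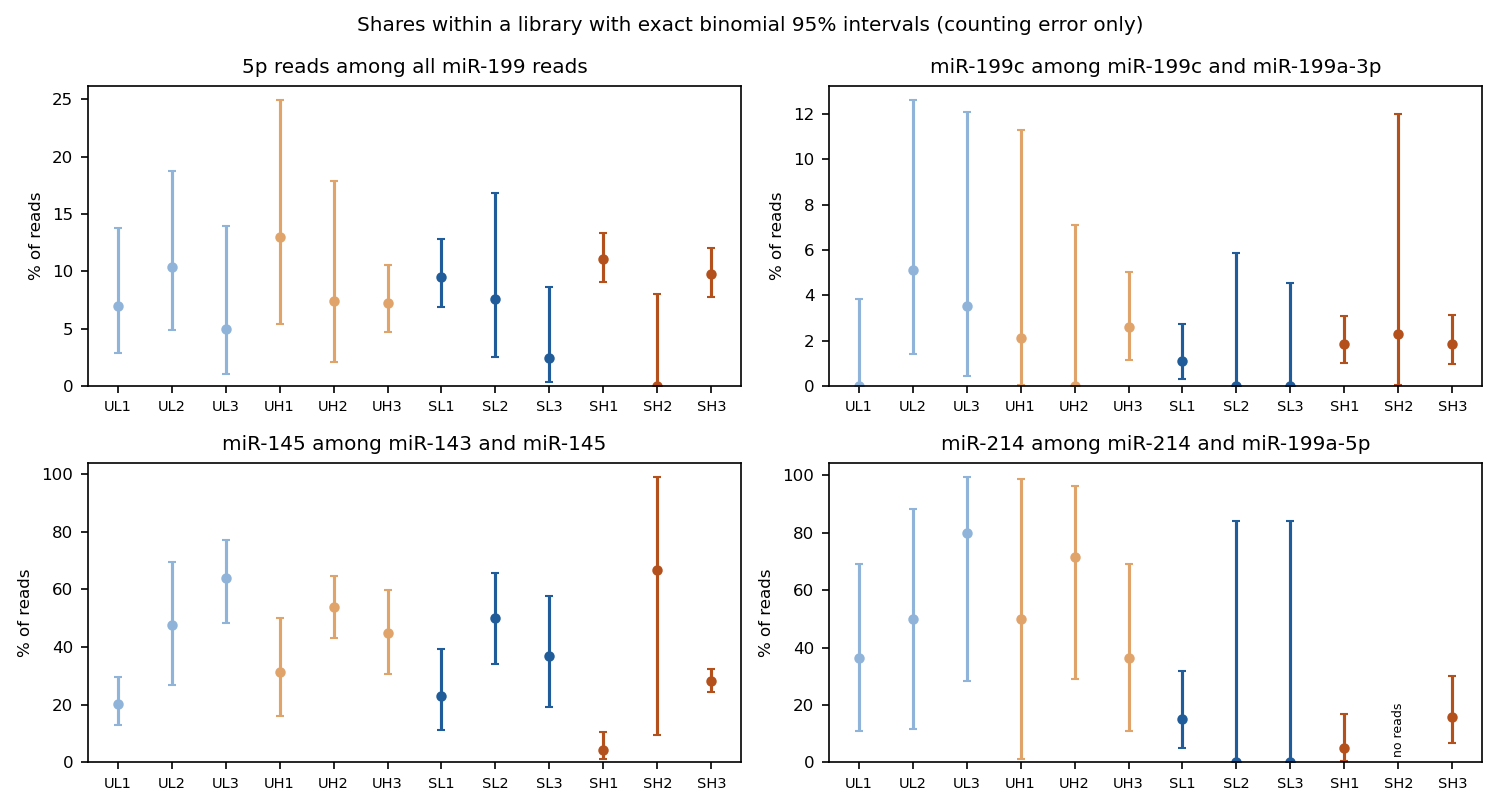
Percentage of reads (y axis) in each of the 12 libraries for 4 shares, with exact binomial 95% intervals for counting error. The share of 5p reads stays between 0 and 13.0%, while the share of miR-145 runs from 4.30% in SH1 to 66.7% in SH2 (2 of 3 reads).

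Joint variation was examined over the 6 heifers of each cycle for 12 relations. In S, miR-199a-3p and miR-199a-5p had r = 0.94 (exact permutation P = 0.0236, adjusted P = 0.142) and rho = 0.94 (exact permutation P = 0.0167, adjusted P = 0.20), with r = 0.98 without SH1 and SL2. The r of miR-199a-3p in S was 0.88 with miR-199b, 0.91 with miR-199c, 0.86 with miR-214 and 0.75 with miR-143, with exact permutation P between 0.0194 and 0.0917. Those with miR-199b, miR-199c and miR-214 rest in part on libraries with 0 reads. miR-214 had 5, 0 and 0 reads in SL1 to SL3 and 2, 0 and 7 in SH1 to SH3. miR-199b had 0 reads in SL3 and SH2, and miR-199c had 0 in SL2 and SL3. In U, the r of miR-199a-3p was 0.73 with miR-199a-5p and 0.002 with miR-143, and its value in UH3 stood apart. miR-143 and miR-145 had r = 0.60 in S and 0.25 in U, and r in S was -0.99 without SH2 and SH3, so it rests on these 2. No relation passed the correction over the 12 (the lowest adjusted P of an exact permutation test was 0.142).

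Over the 12 libraries, in which each heifer appears 2 times, the 5 miRNAs outside the 7 whose levels ranked most like those of miR-199a-3p were miR-196b (rho 0.95), miR-196a (0.91), let-7c (0.80), miR-148a (0.78) and miR-423-3p (0.75), among 102 with a mean of at least 10 reads. miR-196a and miR-196b are near-identical, so their reads may be split between entries. For miR-143 they were miR-125b (0.69), miR-98 (0.66), miR-186 (0.63), miR-30c (0.55) and miR-379 (0.54). Among the members, the rho of miR-199a-3p was 0.85 with miR-199a-5p, 0.56 with miR-143, 0.19 with miR-214 and -0.36 with miR-145. These are descriptions, and the points share libraries and depth.

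A list of 16 other miRNAs known from mesenchymal cells was written with earlier results of these data known. It summed to 2198 to 2806 normalized reads in UL and 2265 to 2412 in UH. In the S cycle it summed to 2170 to 4157 in SL and 2041 to 8204 in SH. SH1 (8204), SH3 (5555) and SL1 (4157) were the highest, as for miR-199a-3p, and SH2 (2041) the lowest of all 12. In SH vs. UH, 2 of the 16 were called, both higher in SH, against 5.66% of all tested, with a median log2 fold change of 0.29 against -0.14. These were miR-196a (2.67, SE 0.72, limma adjusted P = 0.290), encoded in the HOX clusters, and let-7c (1.31, SE 0.56, limma adjusted P = 0.736), of the let-7 family. The study had reported let-7c, miR-196a and miR-379 as higher in SH than in UH. Calls of these miRNAs in the same libraries are therefore not separate evidence. The RT-qPCR of the study in separate heifers included let-7c and miR-196a. In SL vs. UL, 0 of the 16 were called by limma, against 2.34% of all tested (median -0.06 against -0.07). In the paired comparison, 2 of the 16 were called, against 5.46% of all tested (median 0.09 against -0.13), with 8 above 0 and 8 below. The 2 called were miR-196a (1.93, SE 0.52, limma adjusted P = 0.153) and miR-379 (1.23, SE 0.50, limma adjusted P = 0.415), of an imprinted miRNA cluster, while miR-10b, which was not called and is named after its values were seen, had -0.49 (SE 0.20) and was lower in S in 5 of 6 heifers. let-7c alone went from 1282 to 5986 normalized reads in H1 and so set most of the list's sum.

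Of the lists for other cell types, only the endothelial list had SH1, SH3 and SL1 together at one end of its range. The 4 endothelial miRNAs, miR-126-3p among them, summed to 2289 normalized reads in SH1 and 1755 in SH3, the lowest of the 12 libraries, with 3597 in SL1 next and 7738 in SH2. miR-126-3p and miR-126-5p set most of this sum, with 1499 and 171 of 1705 reads in SH1 and 2357 and 442 of 2913 in SH3. In SH vs. UH and in the paired comparison, 2 of the 4 had a log2 fold change above 0. The 3 erythroid miRNAs summed to 8362 in SH3, the library with the highest miR-143 and miR-145, and to 982 to 2756 in the other 11. miR-486 alone gave 13808 of the 13881 reads of this list in SH3, against 72 of miR-451 and 1 of miR-144. The 10 leukocyte and platelet miRNAs summed to 2846 to 5551, with 2988 in SH1. The 5 striated muscle miRNAs were at 1713 in UL1, the U library with the highest miR-143, and at 38.4 to 166 elsewhere. The liver list ran from 94.3 to 724 and the epithelial list from 22.0 to 91.2, with 3 of its 5 miRNAs at 0 in SH1. The part of these lists in the results was not tested.

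**Figure D5:**
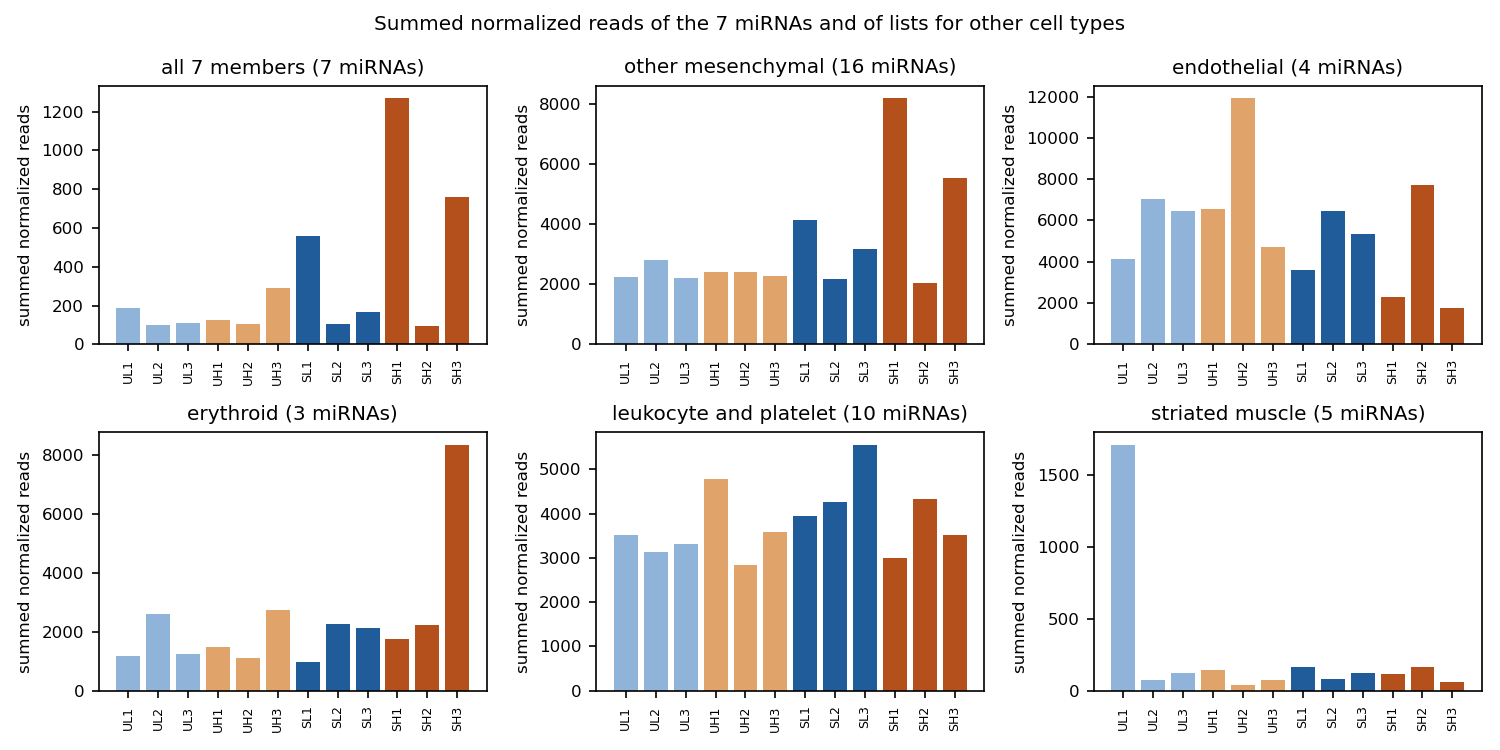
Summed normalized reads (y axis, from 0) in each of the 12 libraries for the 7 miRNAs and 5 lists of miRNAs known from other cell types. SH1, SH3 and SL1 are the highest for the 7 miRNAs and for the other mesenchymal list, and SH3 and SH1 the lowest for the endothelial list.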

How the data were processed

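Small RNA libraries were made from plasma EVs of 6 heifers on Day 7 of both cycles (12 libraries, 3 per group), with a kit that adds unique molecular identifiers (UMIs). UMI collapsing (Cutadapt), mapping to UMD3.1 (Bowtie2 2.2.2) and annotation of perfect matches (miRBase release 21) were done by the authors. The deposited values are a score that the authors derived from read counts, depth-scaled tags (TPM) cut to whole numbers. Reads were recovered from the step of each library, and all values fell on a step. Reads of known miRNAs ranged from 21466 to 77433, which limits the precision of the rarer members, and intervals on reads cover counting error only. All 7 members and 0 unmapped columns were handled in this way.

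TMM factors were calculated with code written from the published description. limma 3.58.1 (R 4.3.3, with eBayes and a trend of variance on level, two-sided) was fitted to log2(normalized reads + 1), on which low levels have understated fold changes. Entries needed at least 1 read in at least 2 libraries of a group, and adjusted P values (Benjamini-Hochberg) cover all miRNAs tested. The plan had allowed for a count test if the table held raw counts. It holds scaled values, so limma was used, and the study's supplementary tables were not used here. Only the groups compared entered a fit, except that all 12 libraries entered the paired fit, with the heifer as a block, and the interaction, without it. The fits were tested on simulated counts with independent libraries, no heifer effect and the same dispersion for every miRNA. This does not give the error rates for the members, whose levels vary widely between libraries. Python 3.11.15 with scipy 1.17.1 gave the exact permutation tests and exact binomial intervals.

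The number in a library name was taken as the heifer, since the study sampled the same heifers in both cycles, although the sources do not state that the numbers match. Across 238 miRNAs, deviations from the group mean correlated between the libraries of a heifer with r of 0.05, 0.21 and 0.13 for H1 to H3 and 0.10, 0.06 and -0.05 for L1 to L3. Replicates differed by more than sampling noise in all pairs and were counted separately. The members and the lists of other miRNAs were chosen with earlier results of these data known. Named are the 7 members, the 5 miRNAs ranked most like miR-199a-3p and like miR-143, the mesenchymal miRNAs called between cycles, and marker lists by their sums. Alternatives were other size factors, the deposited values plus 5, other filters and pseudocounts, no trend, all groups in 1 fit, the block, and leaving out each library or heifer.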

Additional observations from a re-analysis of the deposited data

How the results depend on the processing

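Wherever they were tested, the 7 members kept their direction in each comparison under other size factors, filters and pseudocounts, without the trend, with all groups in 1 fit and with or without the replicate block, and 549 of 624 values over all alternatives kept both their direction and their side of the threshold. miR-199a-3p was called in the paired comparison under 15 of 15 alternatives, with log2 fold changes of 1.10 (without heifer H1) to 1.90 (without L2) and limma adjusted P of 0.0129 (without L2) to 0.555 (no replicate block), under 0.05 in 1 of 15. In SH vs. UH, 0 of the 7 were called without the mean-variance trend, and the limma adjusted P of miR-199a-3p ran from 7.69e-07 (without SH2) to 0.937 and was under 0.05 under 2 of 16 alternatives, without SH2 and without a filter (0.00357). In SL vs. UL, 1 was called without a filter and 1 with the replicate block, both miR-199a-3p. In SH vs. SL, 1 was called with a pseudocount of 0.5, 1 without the trend and 1 with all 4 groups in 1 fit, in each case miR-199c, which passed the filter through SH alone. In the paired comparison, 2 were called with a pseudocount of 2, miR-199a-3p and miR-199a-5p. With the heifer as a block, no other call of a member changed. In SH vs. UH, 0 to 5 of the 7 were called without 1 library, and the log2 fold changes that turned ranged from -0.48 to 2.65 for miR-199b, -0.89 to 0.30 for miR-214, -0.54 to 2.51 for miR-143 and -1.91 to 0.10 for miR-145. In SL vs. UL, 0 to 1 of the 7 were called without 1 library, and the log2 fold changes that turned ranged from -0.13 to 1.66 for miR-199a-5p, -0.43 to 1.5 for miR-199b, -1.26 to 0.022 for miR-199c, -0.35 to 0.96 for miR-143 and -0.59 to 0.16 for miR-145. In UH vs. UL, 0 to 1 of the 7 were called without 1 library, and the log2 fold changes that turned ranged from -0.46 to 0.85 for miR-199a-3p, -0.65 to 0.30 for miR-199a-5p, -0.61 to 0.80 for miR-199c, -0.38 to 0.94 for miR-143 and -0.20 to 0.55 for miR-145. In SH vs. SL, 0 to 4 of the 7 were called without 1 library, and the log2 fold changes that turned ranged from -0.65 to 2.21 for miR-199a-5p, -0.57 to 2.49 for miR-143 and -1.52 to 0.49 for miR-145. In the paired comparison, 1 to 3 of the 7 were called without 1 heifer, and the log2 fold changes that turned ranged from -0.19 to 1.14 for miR-143 and -0.94 to 0.067 for miR-145. In the change in H minus that in L, 0 to 1 of the 7 were called without 1 heifer, and the log2 fold changes that turned ranged from -0.057 to 1.5 for miR-199a-3p, -0.68 to 2.16 for miR-199a-5p, -0.75 to 1.97 for miR-199b, -0.92 to 2.39 for miR-143 and -1.85 to 0.66 for miR-145. The call of miR-199a-3p in SH vs. UH was lost without UH1, UH2, SH1 or SH3 and kept without UH3 or SH2. Members that were not called in the full data but without 1 library or heifer, beside those without SH2, were miR-199c (without UH3) and miR-145 (without SH3) in SH vs. UH, miR-214 (without SL1) and miR-199a-3p (without SL2) in SL vs. UL, miR-199b (without UH2) in UH vs. UL, miR-199c (without SL1) and miR-145 (without SH3) in SH vs. SL, miR-143 (without H2) and miR-199a-5p (without H2 or L2) in the paired comparison, and miR-143 (without H2) and miR-199c (without L1) in the change in H minus that in L. The cause of these changes was not tested. Where an SH library was left out, the group kept 2 libraries, whose spread limma takes partly from the other miRNAs. Group medians of the read shares moved by less than their SD in 54 of 54 cases. With 3 values per group this outcome is fixed by arithmetic, so it does not show that the shares are stable. Depth limits miR-214 and miR-199c most, with 35 and 47 reads in all 12 libraries.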
